A study of Mus musculus with 32 samples.

Results

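The 10 genes described here encode the light-response cascade of the cone photoreceptor, and they were chosen by their known role in it and not by a measured value. They are Opn1sw, Opn1mw, Arr3, Gnat2, Pde6c, Pde6h, Cnga3, Cngb3, Gngt2 and Guca1a, 10 of the 37310 genes in the table of tumor counts. All 10 were listed, and 9 passed the filter on low counts, which asked for a CPM (counts scaled to library size) above 1 in at least 3 tumors; Opn1mw did not. The counts came from biopsies of hindbrain tumors of 2 transgenic mouse models, 6 GMYC and 8 GTML tumors, and asked how tumors driven by MYC differ from tumors driven by MYCN. GMYC mice carry Glt1-tTA and TRE-MYC, and GTML mice carry the same Glt1-tTA with a MYCN transgene. In both, the Glt1 promoter, active in astrocytes and in progenitor cells, drives the tetracycline transactivator tTA, which switches the oncogene on in the absence of doxycycline, and both were kept on the FVB/N background. The methods describe most GTML libraries as generated earlier than the GMYC libraries, and the labels do not mark which, so that model and time of library preparation cannot be told apart. Ages of the animals at biopsy are not in the labels, and each sample is 1 tumor biopsy.

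In a cone, light activates an opsin, the opsin activates the heterotrimeric G protein transducin, and transducin releases phosphodiesterase 6 from its inhibitory subunit. The phosphodiesterase hydrolyses cyclic GMP, the cyclic nucleotide-gated channel closes, and the cell hyperpolarises. Arrestin shuts the opsin off, and guanylate cyclase activating proteins restore cyclic GMP as calcium falls. Rods use a parallel set of genes, mostly paralogs of the cone set. Transcription of photoreceptor genes, under factors such as CRX and OTX2, is a known feature of Group 3 medulloblastoma, a childhood tumor of the hindbrain, and several of the same genes are also active in the pineal gland.

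Promoter sequences are shown for 5 members, since CRX and OTX2 recognise words of the form TAATCC and TAATCT, and those words are what can be read from the sequence. RefSeq start sites on GRCm38.p6 were available for 7 of the 10 members (8 windows, Cnga3 having more than 1); Pde6c, Cngb3 and Gngt2 were not in the table. Each sequence is the 250 bases before the annotated start, 5′ to 3′ on the strand of the gene, with TAATCC or TAATCT on either strand (GGATTA or AGATTA on the other) in capitals. The word TAATCT was added after the sequences had been read.
Gnat2, chr3:108092816-108093065, + strand: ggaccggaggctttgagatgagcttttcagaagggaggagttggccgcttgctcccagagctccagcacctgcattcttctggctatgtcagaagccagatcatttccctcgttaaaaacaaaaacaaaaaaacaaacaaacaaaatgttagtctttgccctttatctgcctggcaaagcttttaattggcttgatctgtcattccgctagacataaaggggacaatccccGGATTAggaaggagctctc
Guca1a, chr17:47400607-47400856, - strand: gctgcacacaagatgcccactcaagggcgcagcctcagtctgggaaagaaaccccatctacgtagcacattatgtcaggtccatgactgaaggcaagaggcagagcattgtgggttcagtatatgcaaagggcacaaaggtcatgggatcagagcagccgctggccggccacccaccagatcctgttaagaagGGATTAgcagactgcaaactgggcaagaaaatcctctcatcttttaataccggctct
Arr3, chrX:100605247-100605496, + strand: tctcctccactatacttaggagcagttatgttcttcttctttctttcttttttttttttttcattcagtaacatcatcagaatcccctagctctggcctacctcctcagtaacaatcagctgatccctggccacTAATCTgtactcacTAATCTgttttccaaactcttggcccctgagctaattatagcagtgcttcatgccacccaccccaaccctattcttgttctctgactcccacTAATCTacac
Opn1sw, chr6:29380514-29380763, - strand: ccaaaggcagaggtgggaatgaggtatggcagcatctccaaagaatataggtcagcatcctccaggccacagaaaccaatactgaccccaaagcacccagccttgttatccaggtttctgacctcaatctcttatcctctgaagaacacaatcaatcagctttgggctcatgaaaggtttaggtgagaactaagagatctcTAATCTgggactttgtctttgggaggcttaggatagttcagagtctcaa
Pde6h, chr6:136954273-136954522, + strand: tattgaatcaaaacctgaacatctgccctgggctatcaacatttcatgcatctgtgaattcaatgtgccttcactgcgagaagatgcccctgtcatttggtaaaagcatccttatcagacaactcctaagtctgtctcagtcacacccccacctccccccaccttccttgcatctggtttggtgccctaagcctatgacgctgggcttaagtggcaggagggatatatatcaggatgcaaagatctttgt
Gnat2 holds TAATCC on the other strand, beginning 19 bases before the start, and Guca1a holds it 57 bases before the start. Arr3 holds TAATCT 3 times, beginning 116, 102 and 10 bases before the start, and Opn1sw holds it once, 49 bases before the start. The windows of Pde6h, Opn1mw and Cnga3 hold neither word. TAATCC was found in 2 of the 8 cone windows (25%), in 4 of 7 windows of the rod counterparts (57.1%) and in 2054 of all 32851 windows (6.25%). TAATCT was found in 2 of the 8 cone windows, in 0 of 7 windows of the rod counterparts and in 7.31% of all windows. Windows with 3 or more copies, as in Arr3, numbered 13 of 32851. Since this word was picked after reading these sequences, its share in them is only a description. These are matches of letters and say nothing about binding in these tumors.

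Total counts per tumor ran from 6218378 to 7279811 in GMYC and from 4602294 to 6317404 in GTML, so that a count of 0 allows up to 0.404 to 0.646 CPM (3 counts, counting error only). Counts on the mouse driver genes followed the labels: Myc had 33.4 to 166 CPM in GMYC and 2.6 to 8.68 in GTML, and Mycn 7.65 to 34.4 and 119 to 191. The MYC transgene is human and the reads were aligned to a mouse genome, so the Myc values need not be the level of the transgene. The following 3 tumors stood apart in the cone genes. GTML tumor 3 had the highest value of all 14 tumors for 7 of the 10 members and a summed level of 838 CPM. GTML tumor 2 had the lowest GTML value for 8 members and a summed level of 67.5 CPM. It was also the highest of all tumors for the SHH pathway genes Gli1 (14.1 CPM) and Gli2 (110 CPM) and the lowest for Crx (97.6 CPM). Of other SHH genes, Ptch1 was highest in GTML tumor 7, Sfrp1 in GTML tumor 6 and Hhip in GMYC tumor 3. Of other Group 3 markers, Otx2, Gabra5 and Impg2 were lowest in GTML tumor 2, whereas Npr3 (176 CPM) and Eomes (3.42 CPM) were highest in it. The study describes 1 outlier GTML tumor with an SHH-like signature, and its own test between models compared 7 GTML with 6 GMYC tumors classed as Group 3. The labels do not mark which GTML tumor was set aside. All 8 are therefore used here, and each was left out in turn. GMYC tumor 4 was the highest GMYC tumor for 6 members, with 367 CPM in all. The medians of the summed level were 211 CPM in GMYC and 223 CPM in GTML. In addition, small nucleolar RNAs took a share of the counts that was above 0.3% in GMYC tumors 1 to 4 and GTML tumors 1 and 2 and below it in the others, and GTML tumors 2, 3, 5 and 8 had almost no counts on Y-linked genes whereas all GMYC tumors had them. Values without GTML tumors 2 and 3 are given where a call or direction changed with them. In bulk tumor RNA, fewer cells of a type and less RNA per cell cannot be told apart.

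**Figure D1:**
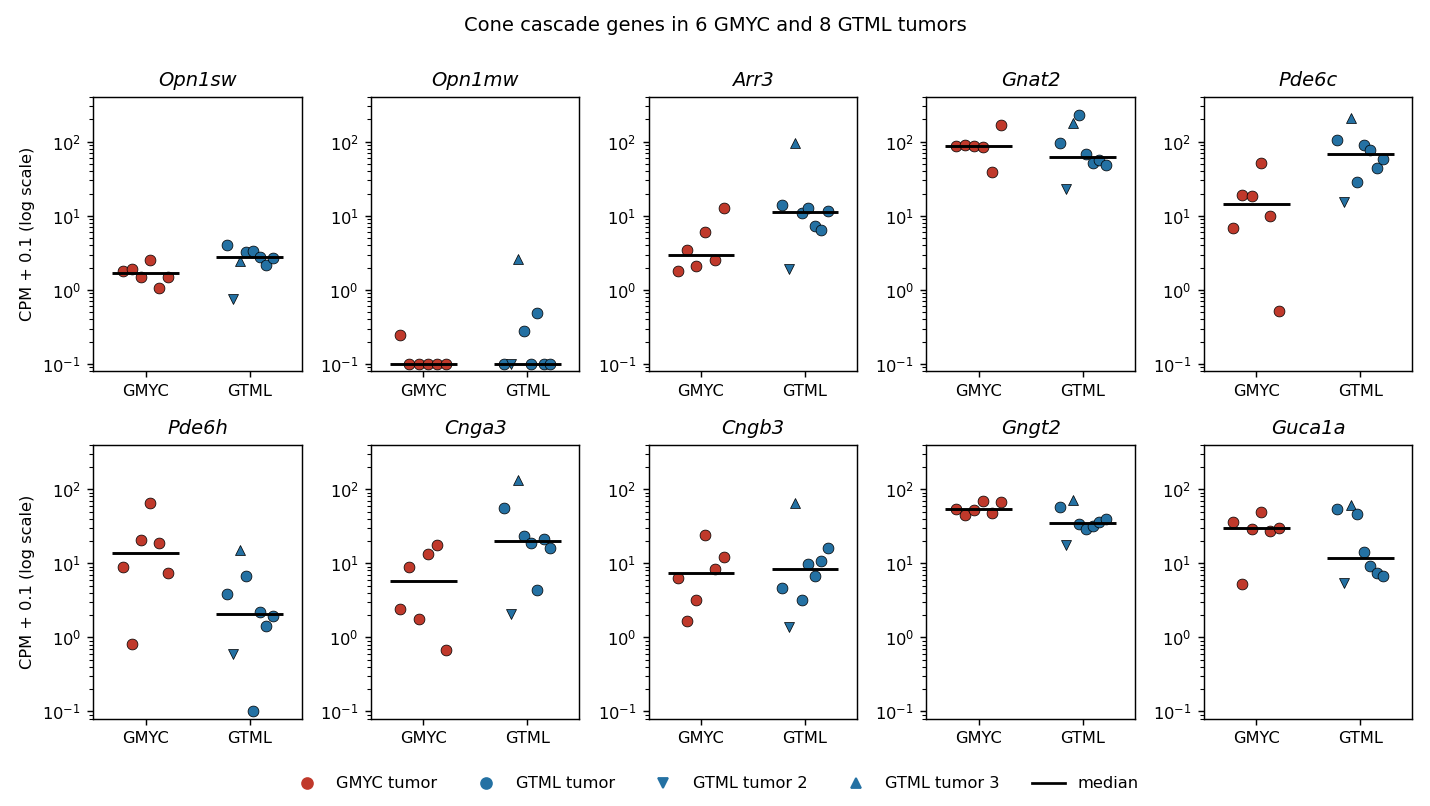
CPM of the 10 cone cascade genes in each tumor, on a log axis after adding 0.1, with GMYC tumors in red, GTML tumors in blue and the median as a line. GTML tumor 3 (up triangle) lies at the top of most panels and reaches 209 CPM for Pde6c, and GTML tumor 2 (down triangle) lies at the bottom of the GTML group for 8 genes.

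The cone opsins had few counts in both models. Opn1sw, the short-wavelength opsin, ranged from 0.966 to 2.43 CPM in GMYC (median 1.57) and from 0.651 to 3.88 CPM in GTML (median 2.66). 5 GTML tumors exceeded every GMYC tumor, but GTML tumor 2 lay below every GMYC tumor. Expressed as GTML over GMYC, as throughout, the log2 fold change was 0.65 ± 0.35 (SE; edgeR adjusted p = 0.182), and 0.8 without GTML tumor 2 (adjusted p = 0.0432). At 4 to 22 counts per tumor, this gene also shares 397 exon bases (15.5% of its exon length) with Calu on the opposite strand, which had 160 to 252 CPM, and how the counting treated strand is not given in the sources used here. Opn1mw, the middle-wavelength opsin, had 19 counts in all 14 tumors together. Of these, 15 fell in GTML tumor 3 (2.5 CPM), and 10 tumors had none. The models did not differ detectably at this depth (difference 0.42 in mean log2 CPM + 0.5, exact permutation test, two-sided, p = 0.308).

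Neither of the 2 cone transducin subunits passed the test between models. Gnat2, the cone alpha subunit, ranged from 39.3 to 166 CPM in GMYC (median 87.7) and from 23.1 to 227 CPM in GTML (median 62.3). The models overlapped almost entirely, and the log2 fold change was 0.02 ± 0.43 (edgeR adjusted p = 0.978). Gngt2, the cone gamma subunit, ranged from 45.2 to 70.1 CPM in GMYC (median 53.3) and from 17.4 to 72 CPM in GTML (median 34.9). 6 of the 8 GTML tumors lay below the lowest GMYC tumor. The log2 fold change of -0.51 ± 0.25 did not pass (edgeR adjusted p = 0.147), but reached an adjusted p of 0.0405 without GTML tumor 3, at -0.69. Gngt2 had the smallest coefficient of variation of the members in GMYC, 18.7%, and 43.5% in GTML, where Opn1sw had 37.3%. It shares 234 exon bases (12.5%) with Abi3 on the opposite strand, which had at most 8.63 CPM.

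The catalytic and the inhibitory subunit of the cone phosphodiesterase had fold changes of opposite sign. Pde6c, the catalytic subunit, ranged from 0.424 to 51.9 CPM in GMYC (median 14.3) and from 15.5 to 209 CPM in GTML (median 68). All 8 GTML tumors were above the GMYC median, and 5 of them were above every GMYC tumor. The log2 fold change was 2.14 ± 0.69 (edgeR adjusted p = 0.0394). Pde6c did not pass an adjusted p of 0.05 in 8 of the 14 fits that left out 1 tumor (GMYC tumors 1, 2, 3 and 5, and GTML tumors 1, 3, 5 and 6), with adjusted p up to 0.0816; without GTML tumor 3 the value was 1.75 (adjusted p = 0.0739). It was 1.93 without GTML tumors 2 and 3 (adjusted p = 0.0374), 2.63 when the fit held the small nucleolar RNA share as a 2-level factor (adjusted p = 0.067) and 1.71 with a Y-linked covariate (adjusted p = 0.161), and 1.84 among the tumors with Y-linked counts (adjusted p = 0.11). Above and below that split it was 1.33 (adjusted p = 0.544) and 4.03 (adjusted p = 0.0376). Pde6h, the inhibitory gamma subunit, ranged from 0.704 to 65.6 CPM in GMYC (median 13.7) and from 0 to 15 CPM in GTML (median 1.98). Only 1 GTML tumor, tumor 3, exceeded the GMYC median, and 3 GMYC tumors exceeded every GTML tumor. GTML tumor 5 had no count, which allows up to 0.646 CPM, and GMYC tumor 2, with 5 counts, was as low as the GTML tumors. The log2 fold change was -2.37 ± 0.86 (edgeR adjusted p = 0.0581). The value was -1.52 without GMYC tumor 4 (edgeR adjusted p = 0.193). It was -3.13 without GTML tumor 3, where it passed an adjusted p of 0.05 (0.0227), as it did at -2.62 without GMYC tumor 2 (0.0305).

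The alpha and beta subunits of the cone channel were low and variable. Cnga3, the alpha subunit, ranged from 0.566 to 17.7 CPM in GMYC (median 5.58) and from 1.95 to 135 CPM in GTML (median 19.9). 5 GTML tumors exceeded every GMYC tumor, and GTML tumors 2 and 6 lay below the GMYC median. Its log2 fold change was 2.22 ± 0.87 (edgeR adjusted p = 0.0766), 1.44 without GTML tumor 3 (adjusted p = 0.185) and 2.4 without GTML tumor 2 (adjusted p = 0.0344). Cngb3, the beta subunit, ranged from 1.55 to 24.3 CPM in GMYC (median 7.34) and from 1.3 to 64.1 CPM in GTML (median 8.15). Its log2 fold change of 0.65 ± 0.75 (edgeR adjusted p = 0.546) rested on 1 tumor and turned to -0.32 without GTML tumor 3.

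Of the genes that end or adjust the response, the arrestin had the higher median in GTML. Arr3, cone arrestin, ranged from 1.72 to 12.7 CPM in GMYC (median 2.9) and from 1.79 to 96.2 CPM in GTML (median 11.3). 7 of the 8 GTML tumors exceeded the GMYC median, but GMYC tumor 6 lay above 6 of the 8. Between models the log2 fold change was 2.09 ± 0.77 (edgeR adjusted p = 0.0627). Without GTML tumor 3 it was 0.96 (edgeR adjusted p = 0.19). Without GTML tumor 2 it was 2.26 (adjusted p = 0.0269), and without GMYC tumor 6 it was 2.69 (adjusted p = 0.0371). Arr3 and Opn1mw are X-linked, and among the tumors with Y-linked counts the log2 fold change of Arr3 was 1.03 (adjusted p = 0.2). Guca1a, a guanylate cyclase activating protein that rods also use, ranged from 5.21 to 49.6 CPM in GMYC (median 29.4) and from 5.37 to 60.7 CPM in GTML (median 11.6). Its GTML values fell into tumors 1, 3 and 4, at 46.3 CPM or more, and the other 5, at 14 CPM or less. Its log2 fold change was -0.22 ± 0.59 (edgeR adjusted p = 0.812).

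The study, with 1 GTML tumor set aside, called genes past an adjusted p of 0.01 with a log2 change of more than 1 either way. By that rule 0 of the 9 tested members were called higher and 0 lower in GTML by edgeR, where 2.11% of all 21024 genes tested were called higher and 1.1% lower. At an adjusted p under 0.05, Pde6c alone was higher and no member was lower, against 11.5% and 9.71% of all genes. 4 members, Arr3, Pde6c, Pde6h and Cnga3, had an unadjusted p under 0.05, against 37.8% of all genes. DESeq2 and limma-voom called none either under the thresholds of the study; at an adjusted p under 0.05, DESeq2 had Pde6c (0.0152), Cnga3 (0.0374) and Pde6h (0.0482), and limma-voom had Pde6c (0.0368). No member had models that did not overlap, which 4.62% of all genes had. These counts depended on single tumors. Of the 14 fits that left out 1 tumor, 2 each passed an adjusted p of 0.05 for Arr3 and Pde6h. For Opn1sw, Gngt2 and Cnga3, 1 of 14 each passed. Without GTML tumor 2, 4 of the 9 members (Opn1sw, Arr3, Pde6c and Cnga3) were higher at an adjusted p under 0.05 and 0 lower, against 15.6% and 15.1% of all genes. Without GTML tumor 3, 0 were higher and 2 (Pde6h and Gngt2) lower, against 10.2% and 8.31%, and without both tumors 2 were higher and 2 lower, against 14.6% and 13.2%. The median log2 fold change of the 9 members was 0.65, and that of all genes tested 0.04. The members' median was 0.8 without GTML tumor 2, -0.18 without GTML tumor 3, -0.01 without both and -0.15 with the small nucleolar RNA factor, so its sign depended on GTML tumor 3 and on that factor.

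**Figure D2:**
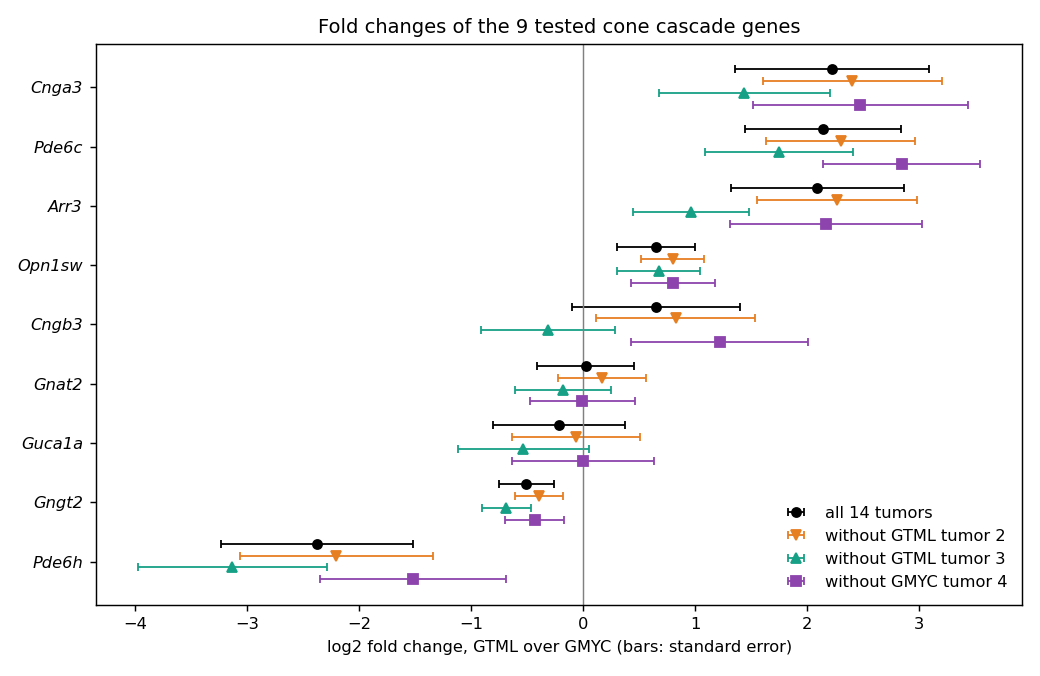
Log2 fold change, GTML over GMYC, of the 9 tested cone cascade genes by edgeR with its standard error, over all 14 tumors and without each of the 3 tumors that stood apart. Cnga3, Pde6c and Arr3 lie above 2 with all tumors, Pde6h lies at -2.37, and Cngb3 changes sign without GTML tumor 3.

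The order of the members by level was set per kilobase of exon, which allows genes of different length to be compared. By the median over 14 tumors, Guca1a came first at 32.1 CPM per kb, followed by Gnat2 at 28.5, Gngt2 at 24.6 and Pde6c at 12.1. Cnga3 followed at 3.69, Arr3 at 2.89, Cngb3 at 1.59, Opn1sw at 0.861 and Pde6h at 0.654 CPM per kb, and the median of Opn1mw was 0. The 9 pairs of neighbours in this order were compared after adding 0.5 CPM. Pde6c exceeded Cnga3 in 13 of 14 tumors (exact sign-flip permutation test, adjusted p = 0.00329) and Arr3 exceeded Cngb3 in 11 of 14 (exact sign-flip permutation test, adjusted p = 0.049). Without that addition, Pde6c and Cnga3 were both at 0.143 CPM per kb in GMYC tumor 6. The pairs were taken from the order in these same tumors, so the p-values describe it and are no independent test. The other 7 pairs did not pass. The order differed by model: in GTML the medians were 22.9 CPM per kb for Pde6c, 20.8 for Gnat2, 18.6 for Gngt2 and 13.2 for Guca1a, and in GMYC 33.7 for Guca1a, 29.3 for Gnat2, 28.4 for Gngt2 and 4.82 for Pde6c. Guca1a exceeded Gnat2 in 6 of 14 tumors. The level of Pde6h is uncertain, since its joined exons span 7846 bases and its shorter transcripts would give a higher value per kb. The opsins that begin the cascade were among the lowest members by the median over all tumors.

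For 8 members, the cone gene was then set beside its rod counterpart within the same tumor, in 9 pairs, since Pde6c has 2 counterparts. The cone form exceeded the rod form per kb in all 14 tumors for Gnat2 over Gnat1, Gngt2 over Gngt1, Pde6c over Pde6a and Cnga3 over Cnga1. Guca1a exceeded Guca1b in all 14 as well, but this pair is not strictly a cone and a rod form. Rods also use Guca1a, and Guca1b was listed with genes shared by rods and cones or acting beside them. Cngb3 exceeded Cngb1 in 13 tumors and Pde6c exceeded Pde6b in 12. The opposite held for arrestin and the inhibitory subunit: Sag, rod arrestin, exceeded Arr3 in every tumor but GMYC tumor 6, and Pde6g exceeded Pde6h in all 14. The order of Pde6h and Pde6g rests on the uncertain exon length of Pde6h: by CPM without length, Pde6h exceeded Pde6g in 3 tumors, GMYC tumors 3, 4 and 5. Other pairs also moved when length was left out. Pde6c then exceeded Pde6a in 13 tumors and Pde6b in 10, Cnga3 exceeded Cnga1 in 13, and Cngb3 exceeded Cngb1 in 11. Sag exceeded Arr3 in all 14, and Gnat2, Gngt2 and Guca1a stayed above their counterparts in all 14. FVB/N mice carry the rd1 allele of Pde6b, whose part in the Pde6b level was not tested.

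**Figure D3:**
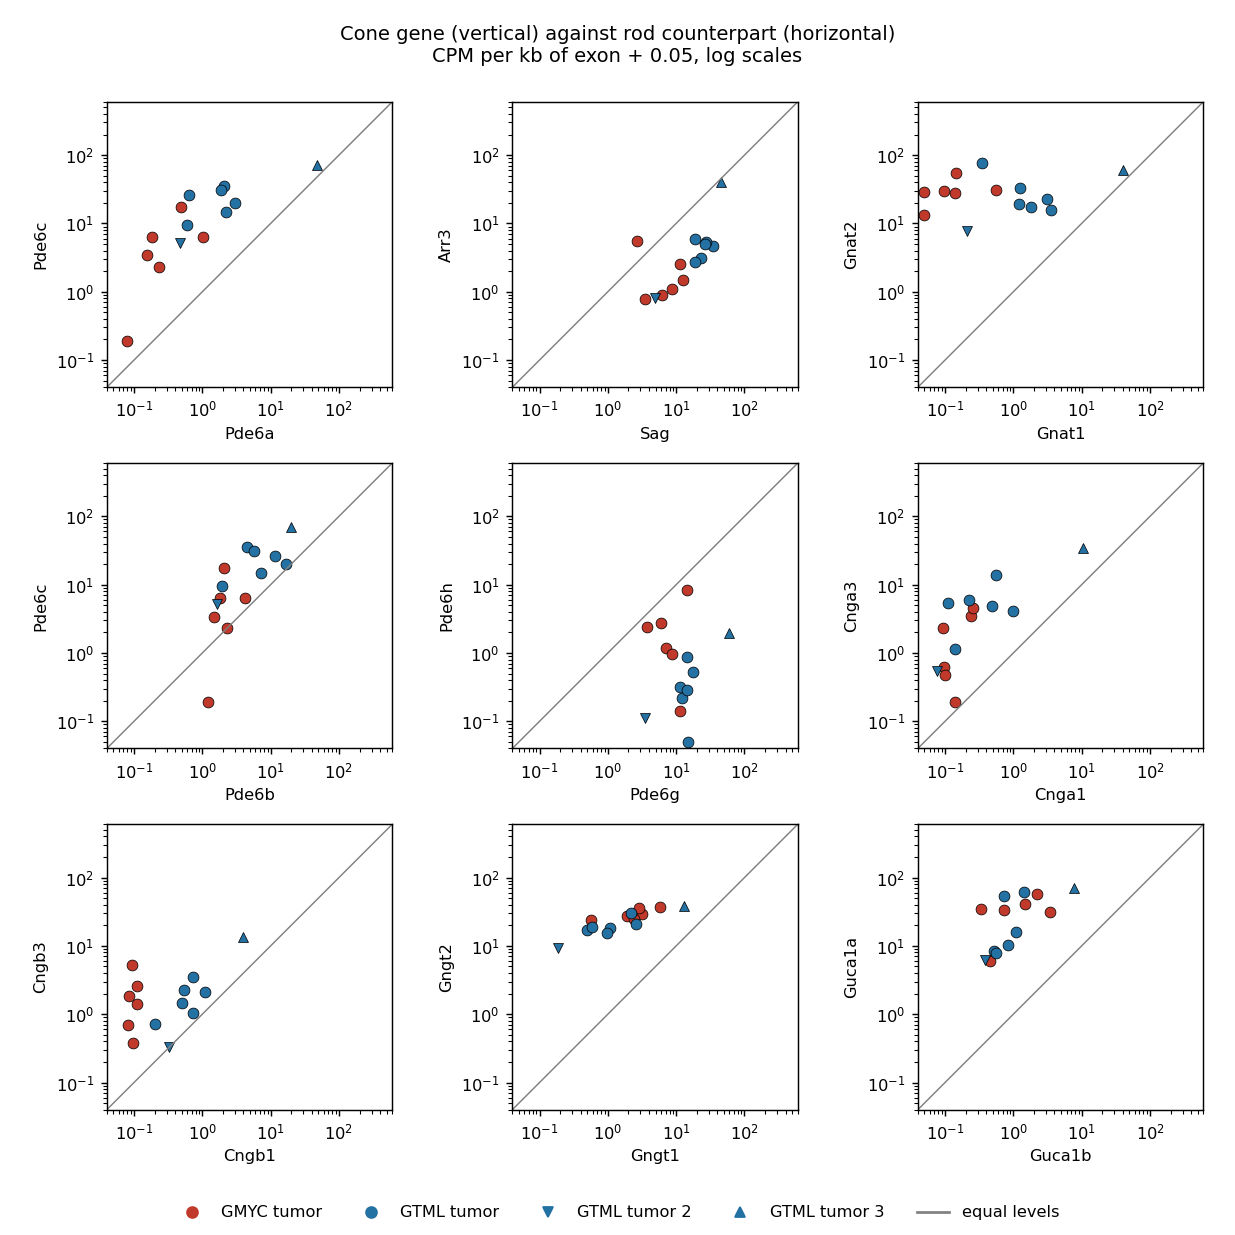
Level of the cone gene against its rod counterpart in each tumor, as CPM per kb of exon plus 0.05 on log axes, with the grey line marking equal levels. Points of Gnat2, Gngt2, Cnga3 and Guca1a lie above the line in all 14 tumors, and those of Pde6h lie below it in all 14 with its full exon length, whereas by CPM alone 3 GMYC tumors would lie above it.

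The ratio of cone to rod form differed between models for 3 of 9 pairs, by the log2 ratio of CPM + 0.5 and an exact two-sided permutation test adjusted over the 9 pairs. For Gnat2 over Gnat1, the log2 ratio ran from 5.49 to 7.73 in GMYC and from 0.58 to 7.33 in GTML. Its mean was 3.2 lower in GTML (exact permutation test, adjusted p = 0.021), with Gnat2 itself level at a log2 fold change of 0.02 and Gnat1 at 5.59. Gnat1 had 0 to 11 counts per GMYC tumor, so the size of this difference depended on the pseudocount. It was -3.74 with a pseudocount of 0.25 CPM and -2.09 with 2 CPM. For Cngb3 over Cngb1, the log2 ratio ran from 1.15 to 4.78 in GMYC and from -0.78 to 1.29 in GTML, a difference of -2.52 (exact permutation test, adjusted p = 0.012). Cngb1 had only 2 to 4 counts per GMYC tumor, and the difference was -2.89 with a pseudocount of 0.25 CPM and -1.52 with 2 CPM. For Pde6h over Pde6g, it ran from -4.49 to 1.07 in GMYC and from -6.14 to -2.28 in GTML, a difference of -2.95 (exact permutation test, adjusted p = 0.024). Here the log2 fold changes were -2.37 for Pde6h and 1.1 for Pde6g, and neither passed an adjusted p of 0.05 (edgeR, 0.0581 and 0.104). Without GTML tumors 2 and 3 together, the differences were -2.85 for Gnat2, -2.38 for Cngb3 and -3.12 for Pde6h, with adjusted p of 0.0519, 0.039 and 0.0519 (exact permutation test).

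The other 6 pairs did not pass. The differences in log2 ratio were 0.92 for Pde6c over Pde6b, 0.47 for Cnga3 over Cnga1, 0.24 for Gngt2 over Gngt1, -0.15 for Pde6c over Pde6a, -0.28 for Arr3 over Sag and -0.48 for Guca1a over Guca1b, with adjusted p between 0.508 and 0.856 by the exact permutation test. The ranges of the models overlapped in all 9 pairs. The differences for Gnat2, Cngb3 and Pde6h kept their sign within the small nucleolar RNA split, being -2.15, -3.29 and -2.24 above it and -3.73, -2.71 and -3.62 below it. With 4 against 2 and 2 against 6 tumors, the two-sided exact test could not give an unadjusted p under 0.05 on either side. The adjusted p were 0.6, 0.6 and 0.857 above the split and 0.429, 0.321 and 0.321 below it (exact permutation test). Among the 10 tumors with Y-linked counts they were -2.11, -2.41 and -2.53, with adjusted p of 0.2, 0.0857 and 0.2 (exact permutation test).

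**Figure D4:**
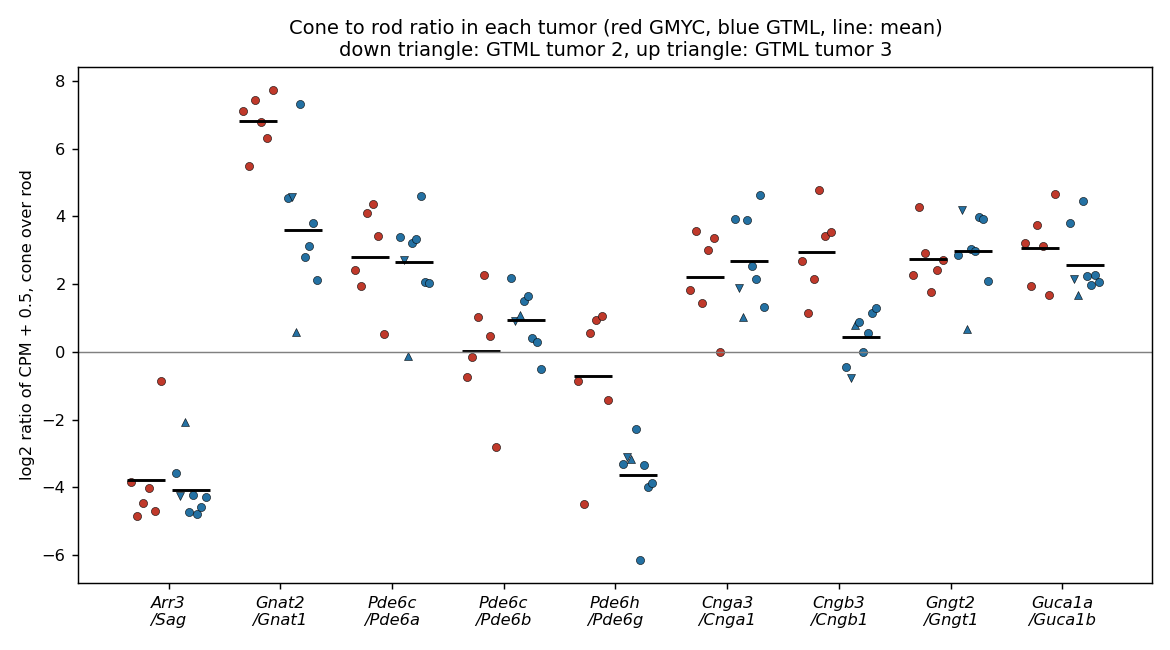
Log2 ratio of cone gene to rod counterpart (CPM + 0.5) in each tumor for 9 pairs, GMYC in red and GTML in blue, with the mean as a line. The mean of Gnat2 over Gnat1 is 6.81 in GMYC and 3.61 in GTML, and that of Pde6c over Pde6a is 2.8 and 2.65.

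Other genes of the pathway were read from lists of cascade partners, rod counterparts and photoreceptor transcription factors. Of 10 rod counterparts, 1 (Cngb1, the rod channel beta subunit, log2 fold change 4.31, edgeR adjusted p = 0.00288) passed the thresholds of the study, 7 were higher at an adjusted p under 0.05 and none was lower; the median was 2.39. Over all genes, 11.5% were higher and 9.71% lower at that threshold. The largest log2 fold changes were those of Gnat1 at 5.59, Pde6a at 4.56 and Cngb1 itself. GTML tumor 3 had 121 CPM of Gnat1 and 227 CPM of Pde6a, against GTML medians of 4.57 and 9.07 CPM. GMYC tumors had 0 to 11 counts of Gnat1 and 1 to 32 of Pde6a. Without GTML tumor 3 the count at an adjusted p under 0.05 was 5 and the median 1.63. It was 2 of 10 by limma-voom, and 1 with the small nucleolar RNA factor and 1 with the Y-linked covariate, with medians of 1.76, 2.19 and 1.54. Of 14 cascade partners shared by rods and cones or acting beside them, 1 was called, the guanylate cyclase Gucy2f (log2 fold change 4.04, edgeR adjusted p = 0.00477). Recoverin (Rcvrn, 4.76) and the chaperone Aipl1 (1.37) passed an adjusted p of 0.05, whereas the cyclase Gucy2e did not (2.01, adjusted p = 0.0808). Of 14 transcription factors none was called in either direction, and Neurod1 alone passed an adjusted p of 0.05, at -0.23; the largest values were Nr2e3 at 2.63, Rxrg at 0.85 and Thrb at -0.8. Crx (97.6 to 429 CPM) and Otx2 (237 to 378 CPM) were high in both models.

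Markers of other cells that use parts of this cascade, or lie beside photoreceptors, were read as summed levels, whose ranges overlapped between the models in each list. The pineal list, of which 4 of 5 genes were measured, summed to 4.99 to 70.2 CPM in GMYC and 27 to 173 CPM in GTML, with 2 of 4 higher at an adjusted p under 0.05; Aanat, the pineal melatonin enzyme, had at most 3.51 CPM. The retinal bipolar list summed to 11.1 to 64.4 CPM in GMYC and 10.9 to 118 CPM in GTML, with Grm6 and Trpm1 called higher and Isl1 lower at an adjusted p under 0.05. Markers of retinal pigment epithelium summed to 7.34 to 17 CPM and 10.7 to 47.8 CPM, with Rrh called higher (log2 fold change 1.94, edgeR adjusted p = 0.00757), Rgr higher at an adjusted p under 0.05 (2.09, 0.0402), and the defining gene Rpe65 at 0 in 7 tumors and at most 0.27 CPM. Their part in the values of the cone genes was not tested. Of the other lists, the SHH like list had 1 gene called, Sfrp1, higher, and those for granule neurons, Purkinje cells, astrocytes, oligodendrocytes, microglia, endothelium and Group 3 like tumors had none. At an adjusted p under 0.05, the granule genes Cbln3 and Etv1 were lower in GTML, and Mog of oligodendrocytes, Kdr of endothelium and the SHH target Gli1 were higher. Cbln3 reached 62.6 CPM in GMYC tumor 1, but its median was 0.907 CPM in GMYC and 1.11 CPM in GTML. For Etv1 the medians were 7.09 and 2.58 CPM. All 5 Purkinje and all 5 astrocyte genes had fold changes below 0, and none of these passed an adjusted p of 0.05. The granule and Purkinje lists had their highest sums of all tumors in GMYC tumor 1, at 181 and 400 CPM.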

How the data were processed

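RNA from fresh-frozen biopsies of 6 GMYC and 8 GTML tumors was sequenced with Ion Torrent chemistry. The authors aligned reads to mm9 with STAR followed by Bowtie and used featureCounts with GENCODE gene models to count them; the submitters' processing notes name STAR 2.4.0, Bowtie2 2.2 and Subread 1.5.2, while the methods of the study give other versions of both aligners. The deposited values are whole-number counts without normalization. Handling of strand and of duplicate reads is not given in the sources used here. A further 18 columns of cell line counts match no label and were not used.

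Counts were fitted with edgeR 4.0.16 in R 4.3.3 (TMM, quasi-likelihood, CPM above 1 in at least 3 tumors, Benjamini-Hochberg adjustment over 21024 genes). The study used limma-voom, kept here as an alternative (limma 3.58.1) with DESeq2 1.42.0, other scalings and filters, the replicate block, leaving out each tumor, and terms for small nucleolar RNA and Y-linked counts. Symbols and exon lengths came from GENCODE on GRCm38, matched by Ensembl identifier (32620 of 37310 genes, 87.4%), and no mm9 coordinates are given. Ratios used a pseudocount of 0.5 CPM. On simulated counts for 21024 genes, 63 of 90 genes changed by a log2 of 2 were called, 97 of 110 changed by 3, and 1 unchanged gene. The changed genes were drawn at random from all genes tested, so these shares are not rates for the cone genes. Python 3.11.15, scipy 1.17.1 and matplotlib 3.10.9 were used.

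The members, lists and tests were chosen with earlier results of these data known. Part of the planned comparisons is not reported here, and the ratios were adjusted over the 9 pairs that are. Named were all members, genes of each pathway list that were called or had its 3 largest changes, Myc and Mycn, and for 8 members the gene most alike; Neurod1, Aipl1, Crx, Otx2, the overlapping genes and single markers were named after their values were seen. Labels do not say that samples with 1 number share an animal, and p-values measure the spread between biopsies. Every pair of tumors of a model differed by more than sampling noise (chi-square per degree of freedom at least 5.67). Precision follows from the counts; the highest count per exon base of a member was 0.423, against 1.271 for any protein-coding gene of at least 500 bases.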

Additional observations from a re-analysis of the deposited data

Results flagged for a closer look

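A highest or lowest tumor lay far from the others of its model, by a gap test at the 95% level, in 12 of 38 groups tested. The test flags about 1 in 20 groups by chance where values are normally distributed, which CPM taken without a log need not be. The flags are therefore a description. In GTML tumor 3, 7 values stood out. Its CPM was 96.2 for Arr3 (next 13.8), 209 for Pde6c (next 104), 15 for Pde6h (next 6.57), 135 for Cnga3 (next 55.4), 64.1 for Cngb3 (next 16) and 2.5 for Opn1mw (next 0.388). In the same tumor the log2 ratio of Arr3 to Sag was -2.07 (next -3.57). GMYC tumor 4 was high for Pde6c, at 51.9 CPM (next 18.9), and Pde6h, at 65.6 CPM (next 20.8). GMYC tumor 1 held the single GMYC count of Opn1mw (0.144 CPM), which is flagged whenever all others are 0. GMYC tumor 6 had a log2 ratio of Arr3 to Sag of -0.86 (next -3.83), and GTML tumor 5, with no Pde6h count, had a log2 ratio of Pde6h to Pde6g of -6.14 (next -3.99).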

How the results depend on the processing

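The cone genes called stayed at 0 higher and 0 lower under every alternative except an adjusted p under 0.05 with no fold threshold, which gave 1 higher. Over all genes, 444 were called higher and 232 lower; DESeq2 gave 1312 and 579 (limma-voom 431 lower), no filter 269 and 149, a small nucleolar RNA term 169 and 127, the tumors above that split 0 and 2 (2420 genes at an unadjusted p under 0.05) and below it 83 and 44, a Y-linked covariate 50 and 9, and the 0.05 rule 2418 and 2041. Leaving out 1 tumor gave 74 (without GMYC tumor 3) to 1038 (without GTML tumor 2) higher and 40 to 586 lower. The replicate numbers do not pair the samples (correlations of same-numbered tumors from -0.212 to 0.24, 1 of 6 GMYC tumors correlating best with its own number); with the number as a block, 7 and 3 genes were called and Cngb3 was -0.17. Chosen after seeing the data were fits without GTML tumors 2 and 3 (818 and 380) and on tumors with Y-linked counts (120 and 44), and the ratios within the small nucleolar RNA split.

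Log2 fold changes near 0 changed sign. Gnat2 was -0.23 by limma-voom, -0.24 with the small nucleolar RNA term, -0.53 above that split, -0.01 without GTML tumors 2 and 3, and -0.3 to 0.27 when 1 tumor was left out. Cngb3 was -0.25 with that term, -1.56 above the split, -0.65 with the Y-linked covariate, -0.55 in tumors with Y-linked counts, -0.11 without GTML tumors 2 and 3, and -0.32 to 1.22 leaving out 1 tumor. Opn1mw was -0.09 above the split. Among ratios, Arr3 to Sag was 0.38 above the split and -0.56 to 0.31 leaving out 1 tumor, Guca1a to Guca1b 0.07 in tumors with Y-linked counts, and Pde6c to Pde6a 0.3 with a pseudocount of 2 CPM, 0.3 without GTML tumors 2 and 3, 0.55 below the split, 0.52 in tumors with Y-linked counts and -0.6 to 0.25 leaving out 1 tumor. Pde6h to Pde6g no longer passed in 4 of 14 fits leaving out 1 tumor (-3.71 to -2.59; each of GMYC tumors 1, 3, 4 and 5, adjusted p = 0.0559). Without GTML tumors 2 and 3, Pde6h to Pde6g (-3.12) and Gnat2 to Gnat1 (-2.85) no longer passed. Above the split, below it and in tumors with Y-linked counts, in that order, with too few tumors to pass on either side of the split, the ratios were -2.15, -3.73 and -2.11 for Gnat2 to Gnat1, -2.24, -3.62 and -2.53 for Pde6h to Pde6g, and -3.29, -2.71 and -2.41 for Cngb3 to Cngb1. The causes of these changes were not tested, beyond the smaller number of tumors. Depth limits Opn1sw and Opn1mw, at no more than 22 counts per tumor.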

Other observations

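For 8 of the 9 tested members, the gene with the most similar profile over the 14 tumors was found among the other 21023 genes by Pearson's r of log2 CPM, as a description; all share the same libraries, and the highest of so many values is large by selection. Arr3 was most like Pla2g5 (r = 0.95, rho = 0.925, and r = 0.957 without the 2 tumors farthest from the median), and Pde6c most like Kcnab1 (r = 0.946, rho = 0.93, r = 0.879). For the other 6 of these, the genes were Pggt1b for Gnat2, Asic4 for Cnga3, Pxmp4 for Gngt2, Atl1 for Opn1sw, Mindy3 for Pde6h and Clptm1 for Guca1a, with r from 0.86 to 0.929. None of the 8 was another member of the cone cascade.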
